A study of Mus musculus with 22 samples.

Results

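Mouse embryonic stem cells (ESCs) expressed 44 genes at 20 CPM or more in each of 3 cultures whose transcripts were nearly absent, below 1 CPM, from each of 3 cultures of primitive endoderm (PrE) cells. CPM is a gene's count as a share of its library's column total, scaled to 1000000 counts. The 44 were taken from 55367 gene symbols, of which 30384 had a count in at least 1 library. Group means chose them: 51 symbols passed both levels, and 7 of these were set aside by name (Eras, Fgf4, Khdc3, Klf2, Nanog, Prdm14 and Tdgf1, all widely used ESC genes). Symbols starting Dppa or Gm were to be left out as well, but none was among the 51. The difference between ESCs and PrE cells is therefore how the genes were found and is given below as a description without a test. The choice did not use ESCs without the Polycomb enzyme Ezh2, those after its return, or those in a second medium. Some of the ESC cultures that it did use, through the 20 CPM minimum, serve as controls below. Changes measured from those controls are therefore not wholly free of the choice.

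ESCs are cultured from the epiblast, the cell layer of the blastocyst that forms the body, and PrE is the neighbouring extraembryonic layer that forms yolk sac endoderm. Ezh2 is the catalytic subunit of Polycomb repressive complex PRC2, which places a repressive methyl mark on histone H3. Loss of PRC2 is known for releasing developmental regulators that ESCs keep silent. The medium called 2i adds inhibitors of the kinases MEK and GSK3 and holds mouse ESCs in a more uniform naive state.

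The study covered 22 RNA-seq libraries in 10 groups. Wild-type ESCs in medium with LIF were a C57 line (title C57.ESC, n = 2) and 2 sets of E14 cells, titled TG2A.NG.PB.ESC (TG2A ESCs here, n = 2) and ESC (E14 ESCs here, n = 3). Wild-type PrE stem cells in PrESC culture were a C57 line (C57.PrESC, n = 2) and 2 E14 lines obtained with the EZH2 inhibitor EPZ-6438 (EPZ.iPrE1 and EPZ.iPrE2, n = 2 each); whether the inhibitor was still present is not stated. Ezh2 knockout cells were a single E14 clone, number 10, kept in serum/LIF (n = 3) or in serum/LIF with 2i (n = 2), and the same clone with Ezh2 put back, called rescued, in serum/LIF (n = 2). TG2A wild-type cells in serum/LIF with 2i (n = 2) were the control of the 2i knockout. Which wild-type set the clone came from is not stated. The labels spell the genotypes Eeh2-null and Eeh2-rescued and name the same E14 background for all but the C57 cells. They do not state whether replicates were separate cultures, so p-values measure the spread between these libraries, which may be technical. With 1 knockout clone, the genotype and the clone cannot be told apart, except as far as the rescued cells derive from that clone.

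The libraries held 13.6 to 26.3 M estimated counts each. Ezh2 had 1 to 2 counts in the knockout libraries in serum/LIF and 0 to 6 under 2i, against 2894 to 4941 in E14 ESCs and 8932 to 9943 in rescued cells. As a level this was 179 to 188 CPM in E14 ESCs and 502 to 534 CPM in rescued cells. Rescued cells thus held more Ezh2 RNA than wild type, and a change on rescue is not a return to the wild-type Ezh2 level. All 8 ESC markers checked were at 20 CPM or more in each group of ESCs, knockout included, and all 13 PrE markers in each PrE group. Neither list was exclusive. In each PrE group 4 of the 8 ESC markers were also at 20 CPM or more, Pou5f1 among them. The 8 summed to 598 to 879 CPM in C57 PrE stem cells, 986 to 1117 CPM in EPZ.iPrE1 and 916 to 1101 CPM in EPZ.iPrE2. Of the 13 PrE markers, 4, 3 and 3 reached 20 CPM in C57, TG2A and E14 ESCs. The knockout clone in serum/LIF also carried PrE transcripts: the 13 PrE markers summed to 2294 to 2536 CPM there, with 9 of the 13 at 20 CPM or more, against 255 to 264 CPM in E14 ESCs, 278 to 287 CPM in rescued cells and 12430 to 17614 CPM in the PrE groups. The C57 libraries were the least alike within a group, and fibroblast (feeder) markers summed to 60.0 and 4554 CPM in the 2 C57 PrE stem cell libraries.

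In the ESC groups most of the 44 genes were of moderate level. The mean over the 3 ESC groups was 100 CPM or more for 5 genes (Cobl, Zdbf2, AU018091, Trh and Pecam1), 50 to 100 CPM for 8 and below 50 CPM for 31, with a median of 42.6 CPM. Cobl, an actin nucleator, was the highest by group mean over all 3, with 171 CPM in C57, 258 CPM in TG2A and 258 CPM in E14 ESCs, although its 2 C57 libraries differed, at 285 and 56.1 CPM. Zdbf2, an imprinted gene, had the highest single group mean, 269 CPM in C57 ESCs. Per kilobase of annotated exon the order changed: Trh, the precursor of thyrotropin-releasing hormone, came first at 108 CPM per kilobase, then Ifitm1, a small membrane protein of the interferon response, at 87.3 and Uchl1, a ubiquitin hydrolase abundant in neurons, at 60.7. Ttn, which encodes the giant sarcomere protein titin, was last at 0.268 CPM per kilobase, against a median of 11.5. The 3 ESC groups did not hold the genes at one level: the highest group mean exceeded the lowest by a median of 1.66-fold and by at least 2-fold for 11 genes, with the widest ratio, 2.68-fold, for Tgm1.

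In the PrE groups little of this RNA remained. The 44 genes together summed to 2467 to 2813 CPM in the ESC libraries and to 8.41 to 15.8 CPM in the 6 PrE libraries. For 35 genes every PrE library was below 1 CPM, for 26 at least 1 PrE library had no count, and the highest single value was 1.69 CPM. Counts summed over the 6 PrE libraries had a median of 22.5 per gene and reached 84 for Evc. Dmrt1, a transcription factor of gonad and germ cell development, and Krt42, a type I keratin, had no count in any PrE library. Setting the PrE level at 3 counts over the group of libraries, the ESC mean was at least 1089-fold higher for Dmrt1 and at least 1008-fold higher for Krt42. These floors cover counting error only. Fewer ESC-like cells and less RNA per cell cannot be told apart in such bulk libraries.

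The cut-offs were crossed by small margins in places. Just inside the ESC level were Klhl8 (20.1 CPM), Gca (20.1 CPM) and Rragb (20.2 CPM), all by their TG2A mean, and just outside it Trps1 (19.7 CPM), Bmerb1 (19.5 CPM) and Pir (19.4 CPM). Just inside the PrE level were Zdbf2 (0.959 CPM), Tex14 (0.952 CPM) and Itgb7 (0.940 CPM), and just outside it Hsd17b14 (1.02 CPM), Elavl2 (1.02 CPM) and Gjc1 (1.06 CPM). In 29 of the 44 genes every single ESC library, not only the group means, was at 20 CPM or more. Without the second C57 PrE stem cell library, the one with the high fibroblast markers, 59 symbols met the rule.

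**Figure D1:**
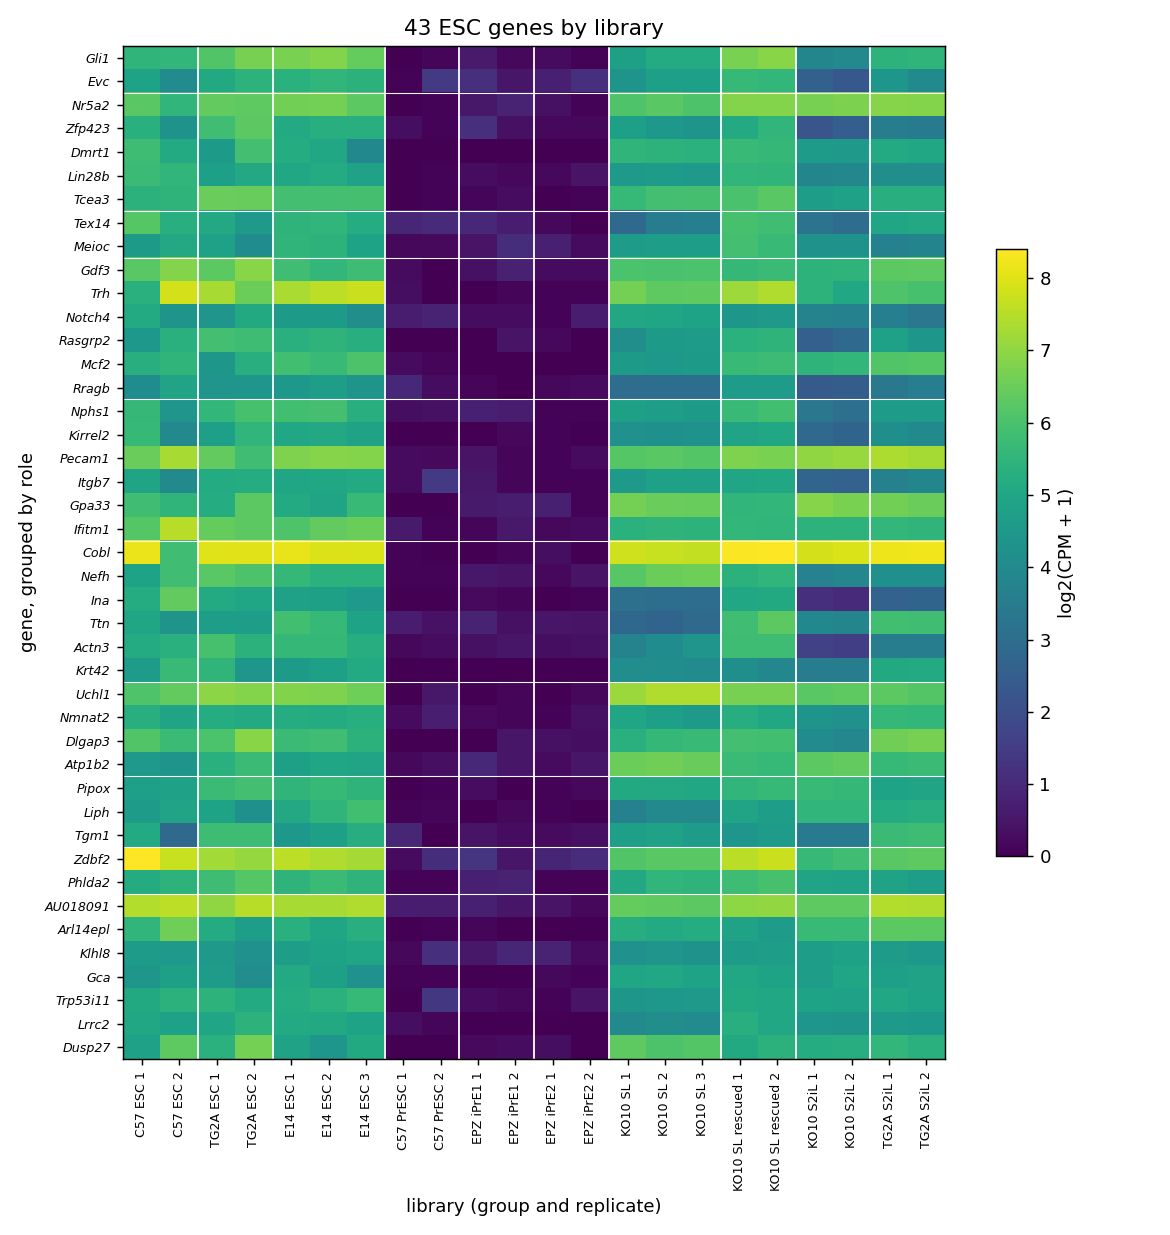
Level of 43 of the 44 genes, as log2(CPM + 1), in each of the 22 libraries; rows are genes grouped by role and columns are libraries ordered by group, with white lines between roles and groups. The 6 PrE columns are dark for every gene (at most 1.69 CPM), and the knockout and 2i columns are intermediate for some genes, such as Ina, Ttn and Actn3.

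Without Ezh2 in serum/LIF, 25 of the 44 genes fell and 5 rose against E14 ESCs, while 14 did not pass the test (edgeR quasi-likelihood test, Benjamini-Hochberg adjusted p below 0.05 over all 17547 tested genes). Falls were led by Ttn (log2 -2.87), the germ cell gene Tex14 (-2.14), the neuronal filament gene Ina (-1.78), the lipase Liph (-1.71) and the hedgehog effector Gli1 (-1.64). Of all tested genes, 22.7% were called lower and 25.8% higher, 48.6% in either direction, so the members' 56.8% lower stands beside a wide background. Among the 6371 genes at 20 CPM or more in each ESC group, 38.2% were called lower and 25.6% higher. The median log2 change of the 44 was -0.63, against 0.07 over all tested genes and -0.11 over the 6371. The levels stayed far above those of PrE cells: the 44 genes summed to 1933 to 1992 CPM in the serum/LIF knockout, and no library of that group had a member below 1 CPM. For 30 genes all 3 knockout libraries lay below all 3 E14 libraries, and for 8 all lay above, where 30.9% and 35.9% of all tested genes separated in those ways (46.3% and 32.8% of the 6371). PrE markers were higher in the same libraries, as given above, and the 12 fibroblast markers were lower in sum, at 1344 to 1514 CPM against 1996 to 2843 CPM in E14 and 2195 to 2252 CPM in rescued cells, with 3, 2 and 2 of the 12 at 20 CPM or more. Most of that sum was Fn1, at a mean of 1217 CPM in the knockout, 2286 CPM in E14 and 2122 CPM in rescued cells. Markers of the 2-cell-like state, a rare state of ESC cultures marked by Zscan4 genes, summed to 148 to 180 CPM in the knockout, 0.869 to 16.6 CPM in E14 ESCs and 8.75 to 9.53 CPM in rescued cells, with 2, 0 and 0 of the 5 at 20 CPM or more. In the same order, 5 trophoblast markers summed to 34.5 to 42.5, 60.9 to 79.5 and 66.5 to 72.6 CPM, 5 mesoderm markers to 15.1 to 16.9, 6.86 to 8.64 and 3.88 to 4.73 CPM, and 5 neural markers to 149.6 to 159.9, 89.99 to 131.6 and 125.8 to 131.9 CPM. ESC markers summed to 4660 to 4709 CPM against 4226 to 4368 CPM in E14 ESCs. The part of these markers in the falls was not tested.

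Of the 44, 22 rose and 4 fell from knockout to rescued cells in which Ezh2 had been returned, while 18 did not pass, against 20.9% of all tested genes called higher and 24.1% called lower, 45% in either direction (37.0% and 23.7% among the 6371). The median log2 change was 0.65, with -0.11 over all genes and 0.12 over the 6371. This comparison shares the knockout libraries with the one above, so the directions are not independent, and each gene's values are set side by side below. Against E14 ESCs the rescued cells stood close: 1 member was called higher, the sodium pump subunit Atp1b2, and 0 lower, where 0.0285% and 0.0798% of all genes were called, 0.108% or 19 genes in all. The median difference there was 0.11, while Ezh2 RNA itself stood above its E14 level in rescued cells, as given above. The Atp1b2 call ended when any 1 of the 5 compared libraries was left out (log2 0.77 to 0.87). A miss of the threshold does not show equal levels: all rescued libraries lay above all E14 libraries for 14 members and below them for 6, where 14.8% and 22% of all tested genes did so (20.1% and 24.6% of the 6371).

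With TG2A ESCs in place of E14 ESCs, 24 members were called lower and 1 higher in the knockout, and 4 lower and 5 higher in rescued cells. Of all tested genes, 14.1% were then called lower and 13.6% higher in the knockout (27.7% in either direction), and 11.6% lower and 10% higher in rescued cells (21.6%). Dusp27 then stood at -0.0735 and Meioc at 0.11, each turned in sign, and Gpa33 at 0.61, Nefh at 0.21, Uchl1 at 0.34, Trh at -0.58, Pecam1 at -0.0035, Mcf2 at -0.48, Evc at -0.78 and Trp53i11 at -0.92 no longer passed. Atp1b2, at 0.92, was the rise that still did. Leaving out 1 library at a time, 17 of the 25 falls and all 5 rises against E14 ESCs kept their call in every fit, as did 16 of the 22 rises and 2 of the 4 falls on rescue.

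**Figure D2:**
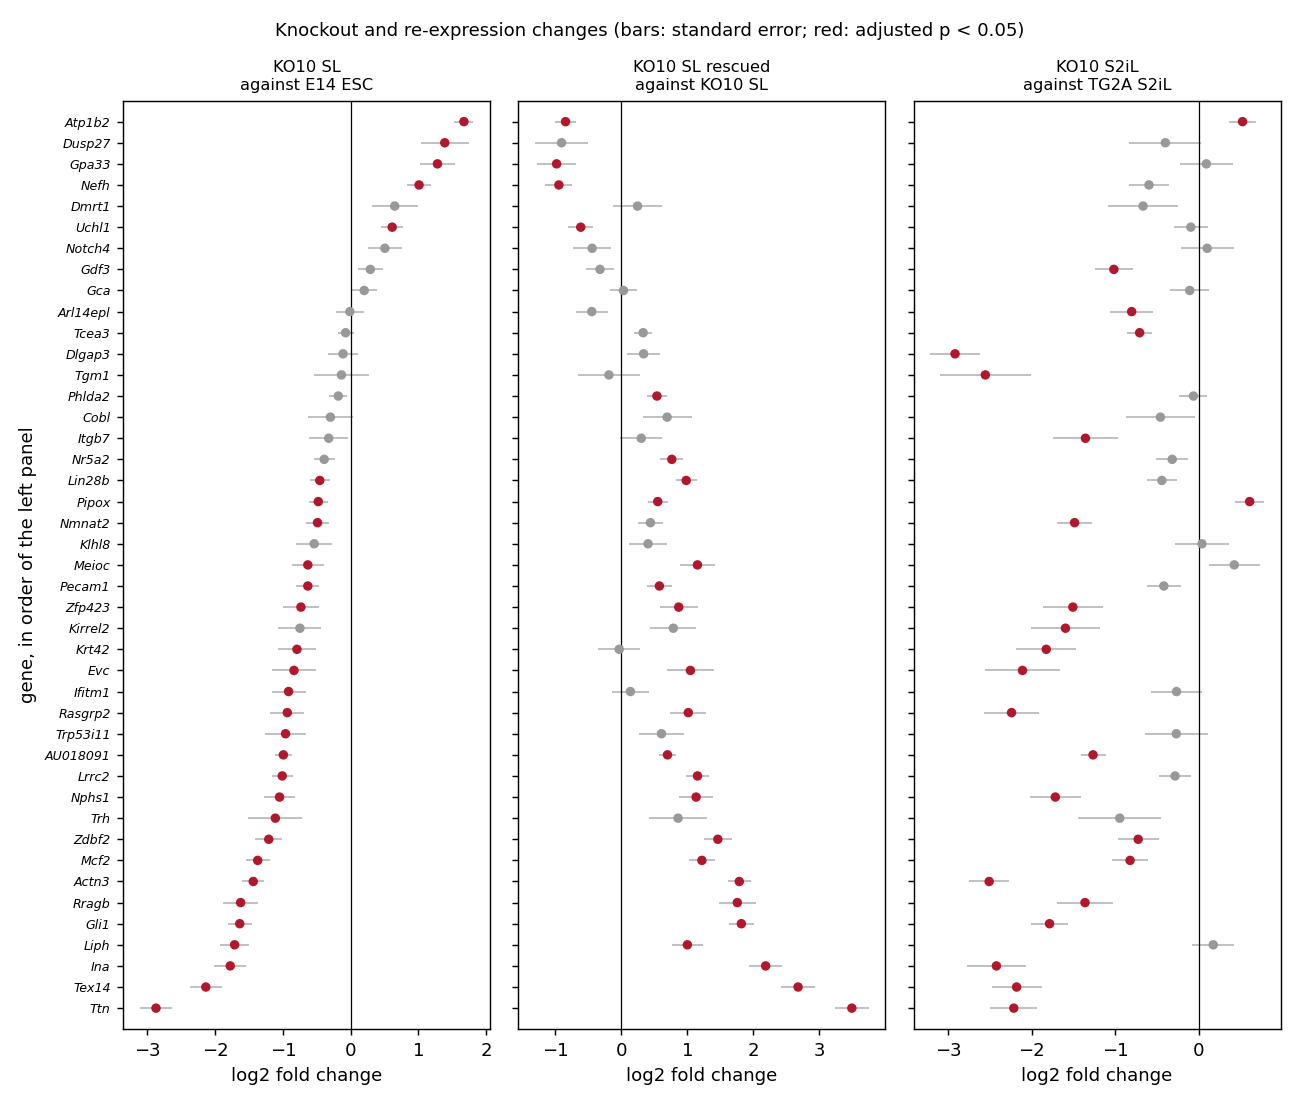
log2 fold change of 43 of the 44 genes in the knockout against E14 ESCs (left), in rescued against knockout cells (middle) and in the knockout under 2i against its 2i control (right); bars are standard errors, red points passed an adjusted p of 0.05, grey points did not, and genes are in the order of the left panel. Ttn, Tex14 and Ina sit at the foot of the left panel and at the far right of the middle one, while Atp1b2, Gpa33 and Nefh show the reverse.

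Gli1, a transcription factor that is itself a standard target of the hedgehog pathway, and Evc, a protein of the cilium base that relays the hedgehog signal, were among the 44. Both fell in the knockout, rose on rescue and fell in the knockout under 2i. Gli1 stood at 103, 114 and 84.1 CPM in E14 ESCs, 26.5, 35.2 and 34.8 CPM in the knockout and 104 and 119 CPM in rescued cells. The knockout libraries were at roughly the same low level and none overlapped the E14 or rescued libraries. Its fall was 1.64 (SE 0.177, adjusted p 1.66e-06) on the log2 scale and its rise on rescue 1.82 (SE 0.191, adjusted p 1.7e-06). Under 2i the knockout held 13.6 and 14.4 CPM against 42.5 and 44.1 CPM in its control, a fall of 1.79 (SE 0.226, adjusted p 4.69e-05). Evc was at 40.2, 45.7 and 40.9 CPM in E14 ESCs, 19.5, 25.7 and 25.7 CPM in the knockout and 49.1 and 46.9 CPM in rescued cells. Its fall of 0.84 (SE 0.329, adjusted p 0.0451) was less secure, since the call was lost when any 1 of the 6 compared libraries was left out (log2 -0.92 to -0.75), and that on rescue, 1.05, ended without knockout replicate 1 or rescued replicates 1 or 2 (log2 0.97 to 1.05). Under 2i its fall was larger, 2.11 (SE 0.447, adjusted p 0.00235), with 5.18 and 4.02 CPM against 20.5 and 15.1 CPM. Gli1 overlaps Arhgap9, and Evc overlaps Crmp1, in the GENCODE M21 annotation, and the strand setting of the counts is not given in the sources used here, so reads of such partners cannot be told apart.

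Among the 5 regulators of transcription and RNA, 2 fell in the knockout, 3 rose on rescue and 2 fell in the knockout under 2i. The shares in those directions were 56.8%, 50% and 52.3% of the 44, and 22.7%, 20.9% and 14.3% of all tested genes. The same shares stand beside the roles below. With so few genes, such counts do not set a role apart. Nr5a2, a nuclear receptor that binds regulatory DNA of Pou5f1, was the one member on a list of pluripotency factors. Its levels were 96.8, 98.5 and 77 CPM in E14 ESCs, 67.1, 74.8 and 65.2 CPM in the knockout and 115 and 115 CPM in rescued cells. The difference from E14 did not pass at -0.39 (SE 0.158, adjusted p 0.051), while the rise on rescue, 0.76 (SE 0.174, adjusted p 0.00193), did, and under 2i the difference was -0.32 (SE 0.193, adjusted p 0.232). Its level in the 2i knockout was 101 and 106 CPM. Lin28b, which blocks maturation of let-7 microRNAs, fell by 0.46 (SE 0.144, adjusted p 0.0152), a call lost without E14 ESC replicate 2 (log2 -0.38), and rose on rescue by 0.98 (SE 0.158, adjusted p 0.000104). Its levels were 31.4, 35 and 28 CPM in E14 ESCs, 22.2, 24 and 22.4 CPM in the knockout and 45 and 44 CPM in rescued cells. Zfp423, a multi-zinc-finger transcription factor, fell by 0.73 (SE 0.261, adjusted p 0.0281), and this call was lost without E14 ESC replicates 2 or 3 or knockout replicates 2 or 3 (log2 -0.73 to -0.66). It rose on rescue by 0.87, a call lost without knockout replicates 2 or 3 or rescued replicate 2 (log2 0.61 to 0.87), and fell under 2i by 1.51, a call lost without 2i knockout replicate 1 (log2 -1.35). Zfp423 was low in both 2i groups, 3.64 and 4.72 CPM in the knockout and 10.9 and 10.4 CPM in the control, without overlap. Tcea3, a tissue-restricted relative of the elongation factor TFIIS, differed only under 2i among the knockout comparisons, where it fell by 0.71 (SE 0.150, adjusted p 0.00235). Dmrt1 passed in none of the 6 pairwise comparisons, and its difference in the knockout was 0.65 (SE 0.339, adjusted p 0.129).

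The 2 members assigned to meiosis and germ cells fell in the knockout and rose on rescue. Dmrt1, also a germ cell gene but counted above with the regulators, passed in neither (0.65 and 0.25). Tex14, needed for the bridges between dividing germ cells, and Meioc, needed for meiotic prophase, lie on chromosome 11. They were the pair of this role whose promoter windows both held the E2F motif GCGGGAA, searched on both strands, and the motif is in capitals (as TTCCCGC where it lies on the other strand) in these 300-base RefSeq windows, from 250 bases before to 50 after the start on GRCm38.p6. The Tex14 window is chr11:87404815-87405114 and that of Meioc chr11:102665335-102665634, both on the plus strand, with 20 and 28 CpG dinucleotides.
Tex14: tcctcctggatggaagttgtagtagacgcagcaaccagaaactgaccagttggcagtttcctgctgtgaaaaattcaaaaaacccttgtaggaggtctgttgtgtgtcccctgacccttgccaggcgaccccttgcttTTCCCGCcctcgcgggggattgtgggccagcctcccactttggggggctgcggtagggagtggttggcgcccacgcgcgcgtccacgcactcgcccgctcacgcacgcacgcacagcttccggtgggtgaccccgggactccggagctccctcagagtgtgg
Meioc: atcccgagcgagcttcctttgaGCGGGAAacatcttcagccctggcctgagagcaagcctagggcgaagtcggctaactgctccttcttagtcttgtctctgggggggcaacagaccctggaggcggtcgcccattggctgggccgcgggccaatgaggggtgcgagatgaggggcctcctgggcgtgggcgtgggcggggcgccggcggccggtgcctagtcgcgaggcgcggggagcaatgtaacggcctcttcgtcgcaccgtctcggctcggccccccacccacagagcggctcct
The motif was in 4 of the 40 member windows (10%; also Evc and Tgm1) and in 4.60% of all 32851 windows. Tex14 levels were 43.2, 45 and 36.3 CPM in E14 ESCs, 6.33, 10.5 and 11.4 CPM in the knockout and 61.9 and 56.5 CPM in rescued cells. Knockout libraries were separate from both other groups, with a fall of 2.14 (SE 0.238, adjusted p 2.23e-06) and a rise on rescue of 2.68 (SE 0.256, adjusted p 6.62e-07). Under 2i Tex14 was at 8.30 and 7.05 CPM in the knockout against 29.8 and 32.5 CPM, a fall of 2.18 (SE 0.298, adjusted p 8.5e-05). Meioc was at 44.7, 42 and 28.1 CPM in E14 ESCs, 23.3, 25.5 and 25 CPM in the knockout and 58.3 and 49.2 CPM after rescue. It fell by 0.63 (SE 0.240, adjusted p 0.0383), a call lost without E14 ESC replicates 1 or 2 or knockout replicates 1, 2 or 3 (log2 -0.68 to -0.51) and turned in sign with TG2A ESCs as control, and it rose on rescue by 1.15 (SE 0.263, adjusted p 0.00195). Under 2i its difference was 0.42 (SE 0.304, adjusted p 0.322). Of the 24 genes on a separate list of germline and methylation-sensitive genes, none of them a member, 11 were called higher and 4 lower in the knockout. The shares over all tested genes were 25.8% and 22.7%.

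Ligands, a receptor and signal relays made up 6 members. Of these, 4 fell in the knockout, 3 rose on rescue and 4 fell in the knockout under 2i, beside the shares given above. The 3 relays of GTPase and nutrient signals fell, rose and fell in these comparisons. Rragb, a GTPase that brings the kinase complex mTORC1 to lysosomes, was at 21.3, 25.4 and 19.4 CPM in E14 ESCs, 7.07, 7.13 and 7.15 CPM in the knockout and 23.9 and 23.4 CPM in rescued cells. The 3 knockout values nearly coincided and lay far from the rest. It fell by 1.62 (SE 0.259, adjusted p 7.9e-05), rose by 1.76 (SE 0.280, adjusted p 9.57e-05) and fell under 2i by 1.36 (SE 0.329, adjusted p 0.00554). Mcf2, an activator of small GTPases, fell by 1.37 (SE 0.179, adjusted p 2.15e-05) and rose on rescue by 1.22 (SE 0.195, adjusted p 0.000157), with 57, 51.5 and 65.3 CPM in E14 ESCs, 23, 21.2 and 22.9 CPM in the knockout and 49.7 and 52.8 CPM after rescue. Its fall under 2i, 0.82, ended without 2i knockout replicate 1 or 2i wild-type replicate 2 (log2 -0.81 to -0.78). Rragb and Mcf2 are the 2 members on the X chromosome. Rasgrp2, an activator of Rap1, fell by 0.94 (SE 0.249, adjusted p 0.00578), and under 2i by 2.24 (SE 0.334, adjusted p 0.000202), where 4.95 and 6.41 CPM stood against 27 and 21.1 CPM. On rescue it rose by 1.02, a call lost without rescued replicate 2 (log2 0.94).

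The secreted and receptor genes were more varied. Gdf3, a ligand of the TGF-beta family that signals through nodal receptors, was at 55.4, 46.7 and 54.7 CPM in E14 ESCs and 64.7, 63 and 63.8 CPM in the knockout, a difference of 0.29 (SE 0.186, adjusted p 0.209). TG2A ESCs held 77.1 and 120 CPM, above every knockout library in serum/LIF, so the direction there depended on the control. Under 2i Gdf3 was at 42.6 and 43.6 CPM in the knockout against 77.1 and 79 CPM and fell by 1.02 (SE 0.231, adjusted p 0.00371). Gdf3 is the one member on a list of 25 ESC signalling genes. Of these, 5 were called lower and 3 higher in the serum/LIF knockout, and 4 lower and 2 higher under 2i. Shares over all tested genes were 22.7% lower and 25.8% higher in serum/LIF, and 14.3% and 15.7% under 2i. Trh fell by 1.11 (SE 0.397, adjusted p 0.0286), with 163, 190.5 and 213 CPM in E14 ESCs and 101, 79.4 and 81.5 CPM in the knockout. That call ended without E14 ESC replicates 2 or 3 or knockout replicates 2 or 3 (log2 -1.11 to -1.01). The return on rescue, to 143 and 168 CPM, did not pass at 0.86 (SE 0.433, adjusted p 0.118). Notch4, a Notch receptor best known from blood vessels, passed in neither knockout comparison (0.51 and 0.10).

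Surface and adhesion genes fell in 3 of 6 cases in the knockout and rose in 1. Beside this stand 56.8% and 11.4% of the 44, and 22.7% and 25.8% of all tested genes. Nphs1 encodes nephrin and Kirrel2 a nephrin-like protein; both are immunoglobulin-type adhesion molecules of the kidney filter. On chromosome 7 they are neighbours read away from each other, with annotated starts 625 bases apart in GENCODE M21. They are shown because they share this interval and both fell under 2i. The RefSeq windows lie at chr7:30459808-30460107 on the plus strand and chr7:30457466-30457765 on the minus strand of GRCm38.p6. The RefSeq start of Nphs1 used there lies downstream of the GENCODE one. The Nphs1 window therefore lies outside the interval between the GENCODE starts. Most of the Kirrel2 window lies outside it as well, within the gene, whose GENCODE start is at position 30457690. Neither CpG count describes that interval. CpG dinucleotides are in capitals, 6 for Nphs1 and 8 for Kirrel2.
Nphs1: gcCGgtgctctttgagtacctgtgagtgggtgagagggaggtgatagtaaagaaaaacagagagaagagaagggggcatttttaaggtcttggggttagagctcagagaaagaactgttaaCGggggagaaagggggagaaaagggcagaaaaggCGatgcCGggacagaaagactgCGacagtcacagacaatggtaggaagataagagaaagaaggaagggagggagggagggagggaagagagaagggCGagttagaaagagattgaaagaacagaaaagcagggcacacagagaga
Kirrel2: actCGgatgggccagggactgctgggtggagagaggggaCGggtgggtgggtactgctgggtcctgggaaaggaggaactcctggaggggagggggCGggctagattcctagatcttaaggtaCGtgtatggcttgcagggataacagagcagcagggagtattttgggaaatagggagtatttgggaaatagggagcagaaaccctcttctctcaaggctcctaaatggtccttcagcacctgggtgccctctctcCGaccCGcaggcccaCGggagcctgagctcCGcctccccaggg
Nphs1 was at 56.7, 59.7 and 37.9 CPM in E14 ESCs, 26.5, 24.8 and 22.7 CPM in the knockout and 49.8 and 56.8 CPM in rescued cells. Kirrel2 was at 31, 33.1 and 27.4 CPM, 18.2, 17.7 and 18.5 CPM and 29.3 and 32.1 CPM in the same groups. For both genes the knockout libraries lay below those of E14 and rescued cells. Nphs1 fell by 1.05 (SE 0.232, adjusted p 0.00134) and rose on rescue by 1.13 (SE 0.253, adjusted p 0.00166), whereas Kirrel2 did not pass in either, at -0.75 (SE 0.318, adjusted p 0.0635) and 0.79 (SE 0.350, adjusted p 0.0795). Under 2i the knockout held 9.05 and 7.40 CPM of Nphs1 against 24.2 and 24.2 CPM, and 6.31 and 5.59 CPM of Kirrel2 against 17.1 and 15.1 CPM. Both fell there, Nphs1 by 1.72 (SE 0.302, adjusted p 0.000624) and Kirrel2 by 1.60 (SE 0.417, adjusted p 0.0096). The Kirrel2 call ended without 2i knockout replicates 1 or 2 or 2i wild-type replicate 1 (log2 -1.70 to -1.52).

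A second divergent pair was higher in the knockout than in E14 ESCs, though neither rise passed against TG2A ESCs. Gpa33, a surface antigen of gut epithelium, and Dusp27, a phosphatase-like protein of muscle, start 2316 bases apart on chromosome 1. Their RefSeq windows are chr1:166129971-166130270 on the plus strand and chr1:166127849-166128148 on the minus strand, again with CpG dinucleotides in capitals, 4 and 3, fewer than in the pair above.
Gpa33: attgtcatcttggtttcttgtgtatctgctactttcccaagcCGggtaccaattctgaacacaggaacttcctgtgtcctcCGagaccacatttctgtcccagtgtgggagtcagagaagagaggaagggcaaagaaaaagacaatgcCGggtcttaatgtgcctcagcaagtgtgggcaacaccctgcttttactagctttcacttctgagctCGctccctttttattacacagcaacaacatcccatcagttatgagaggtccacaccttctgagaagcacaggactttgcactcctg
Dusp27: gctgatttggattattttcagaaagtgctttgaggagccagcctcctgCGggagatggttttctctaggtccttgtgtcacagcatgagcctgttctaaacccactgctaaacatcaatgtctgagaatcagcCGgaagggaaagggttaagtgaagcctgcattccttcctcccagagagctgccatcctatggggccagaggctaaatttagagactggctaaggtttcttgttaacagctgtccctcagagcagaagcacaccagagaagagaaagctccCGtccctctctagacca
Gpa33 was at 34.1, 28.9 and 50.1 CPM in E14 ESCs, 100.3, 88.7 and 86.9 CPM in the knockout and 45.2 and 46.5 CPM in rescued cells. Dusp27 was at 27.9, 20.5 and 33.1 CPM, 78.3, 65.6 and 70.0 CPM and 33.2 and 41.6 CPM. All knockout values lay above those of E14 and rescued cells for both genes. They rose by 1.28 (SE 0.264, adjusted p 0.000889) for Gpa33 and 1.39 (SE 0.356, adjusted p 0.0044) for Dusp27 against E14 ESCs. On rescue Gpa33 fell by 0.98 (SE 0.299, adjusted p 0.0145), a call lost without knockout replicate 1 or rescued replicates 1 or 2 (log2 -1.03 to -0.86), and Dusp27 did not pass at -0.91 (SE 0.400, adjusted p 0.078). TG2A ESCs held 35.6 and 76.7 CPM of Gpa33 and 40.3 and 99.7 CPM of Dusp27, and against them Gpa33 was at 0.61 and Dusp27 at -0.0735, neither past the test. Under 2i the differences were 0.09 and -0.40, and neither passed.

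Of the other surface genes, Ifitm1 and Pecam1 fell in the knockout. Ifitm1 was at 66.6, 82.6 and 89.9 CPM in E14 ESCs, 40.1, 43.8 and 42.8 CPM in the knockout and 46.4 and 44.9 CPM in rescued cells, and the rescued libraries lay below those of E14. It fell by 0.92 (SE 0.251, adjusted p 0.00635), its change on rescue was 0.14 (SE 0.280, adjusted p 0.716), and rescued cells differed from E14 ESCs by -0.78 (SE 0.286, adjusted p 0.407), which did not pass. Pecam1, an adhesion molecule long used as an ESC surface marker, fell by 0.63 (SE 0.169, adjusted p 0.0054) from 109, 117 and 114 CPM to 72.6, 75.3 and 71.2 CPM. Its rise on rescue, 0.58, ended without rescued replicates 1 or 2 (log2 0.57 to 0.58). Against TG2A ESCs the Pecam1 difference was -0.0035. Itgb7, an integrin chain of lymphocytes, did not pass in serum/LIF (-0.32) and fell under 2i by 1.36 (SE 0.386, adjusted p 0.0143), a call lost without 2i knockout replicates 1 or 2 or 2i wild-type replicate 2 (log2 -1.41 to -1.27).

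Cytoskeleton and sarcomere genes included the largest fall in the serum/LIF knockout, that of Ttn. Of 6, 4 fell and 1 rose in the knockout, 3 rose and 1 fell on rescue, and 4 fell in the knockout under 2i. Ttn was at 57.1, 48.2 and 28.5 CPM in E14 ESCs, 6.17, 5.52 and 6.45 CPM in the knockout and 55.8 and 77.9 CPM in rescued cells. The E14 libraries spread 2-fold among themselves, yet all stood well above the knockout. Ttn fell by 2.87 (SE 0.238, adjusted p 1.22e-07) and rose by 3.49 (SE 0.254, adjusted p 6.5e-08). Under 2i it was at 14 and 13.2 CPM against 57.3 and 55.7 CPM and fell by 2.21 (SE 0.280, adjusted p 4.69e-05). Ina, the neurofilament protein alpha-internexin, was at 26.9, 26.2 and 21.9 CPM, 7.52, 7.13 and 7.12 CPM and 31.3 and 33.6 CPM in E14, knockout and rescued cells. It fell by 1.78 (SE 0.236, adjusted p 1.78e-05) and rose by 2.19 (SE 0.254, adjusted p 6.64e-06). In 2i knockout cells Ina was nearly lost, at 1.25 and 0.990 CPM against 5.27 and 5.53 CPM, a fall of 2.42 (SE 0.358, adjusted p 0.000192). Ina overlaps Nt5c2 in the annotation, so its reads are uncertain in the same way as those of Gli1.

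Actn3, a crosslinker of actin at the Z-disc of fast muscle, followed the same course. It was at 47.1, 47.2 and 36.8 CPM in E14 ESCs, 12.4, 16.1 and 19.8 CPM in the knockout and 54.1 and 55 CPM in rescued cells, with no overlap of the knockout with either. It fell by 1.44 (SE 0.161, adjusted p 2.35e-06) and rose by 1.79 (SE 0.174, adjusted p 7.91e-07), and under 2i fell by 2.51 (SE 0.235, adjusted p 4.62e-06), from 10.7 and 10.5 CPM to 2.16 and 1.98 CPM. Krt42 fell by 0.79 (SE 0.282, adjusted p 0.032), a call lost without E14 ESC replicates 2 or 3 or knockout replicates 1, 2 or 3 (log2 -0.84 to -0.61), differed on rescue by -0.03 (SE 0.317, adjusted p 0.948), which did not pass, and fell under 2i by 1.83 (SE 0.357, adjusted p 0.00209). Nefh, the heavy neurofilament chain, moved the other way from its relative Ina. It was at 47, 40.5 and 40.6 CPM in E14 ESCs, 74, 91.1 and 92.6 CPM in the knockout and 41.7 and 45.8 CPM in rescued cells, a rise of 1.01 (SE 0.180, adjusted p 0.000223) followed by a fall of 0.95 (SE 0.206, adjusted p 0.00137). Against TG2A ESCs, at 74.8 and 65.2 CPM, the Nefh difference was 0.21 and did not pass. Cobl passed in none of the 6 comparisons, with 221, 208 and 199.8 CPM in the knockout and -0.30 (SE 0.337, adjusted p 0.487).

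Genes best known from neurons split between rises and falls. Atp1b2, the beta 2 subunit of the sodium-potassium pump, was at 26.3, 30.5 and 29.1 CPM in E14 ESCs, 91.1, 95.1 and 87.2 CPM in the knockout and 51.6 and 48.2 CPM in rescued cells. The 3 groups did not overlap, with rescued cells in between. It rose by 1.67 (SE 0.140, adjusted p 1.34e-07), fell on rescue by 0.84 (SE 0.155, adjusted p 0.00034) and still exceeded E14 ESCs by 0.83 (SE 0.152, adjusted p 0.0464), the call noted above. Under 2i it rose by 0.52 (SE 0.167, adjusted p 0.0266), a call lost when any 1 of the 4 compared libraries was left out (log2 0.46 to 0.55). Uchl1 rose by 0.61 (SE 0.164, adjusted p 0.0054) from 111, 108 and 93.4 CPM to 141, 168 and 169 CPM and fell on rescue by 0.61, a call lost without knockout replicates 2 or 3 or rescued replicates 1 or 2 (log2 -0.65 to -0.54). Dlgap3, a scaffold of the postsynaptic density, did not differ past the test in serum/LIF, where E14 libraries were at 52.5, 56.2 and 41.7 CPM and knockout libraries, overlapping them, at 39.8, 47.7 and 51.2 CPM, a difference of -0.11 (SE 0.222, adjusted p 0.702). Under 2i it was at 15.5 and 13.7 CPM in the knockout against 95.7 and 102 CPM, the largest fall among the 44 in that comparison, 2.92 (SE 0.295, adjusted p 1.09e-05). Nmnat2, which makes the cofactor NAD in axons, fell by 0.49 (SE 0.170, adjusted p 0.0255) in serum/LIF, a call lost without E14 ESC replicates 1 or 3 or knockout replicates 2 or 3 (log2 -0.51 to -0.40), and by 1.49 (SE 0.214, adjusted p 0.00013) under 2i.

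The other 3 enzymes each showed a different course. Liph, a lipase that releases lysophosphatidic acid, was at 32.6, 44.8 and 56.7 CPM in E14 ESCs, 12.1, 14.5 and 14.4 CPM in the knockout and 28.8 and 24.9 CPM in rescued cells. It fell by 1.71 (SE 0.212, adjusted p 6.47e-06) and rose by 1.0 (SE 0.230, adjusted p 0.00212), while under 2i the knockout held 45.3 and 45.2 CPM against 35.2 and 36.7 CPM, a difference of 0.17 (SE 0.251, adjusted p 0.655) that did not pass. Tgm1, a transglutaminase of the skin barrier, did not pass in serum/LIF at -0.14 (SE 0.413, adjusted p 0.81) and fell under 2i by 2.55 (SE 0.541, adjusted p 0.00236), from 52.1 and 55 CPM to 10.4 and 9.96 CPM. Pipox, a peroxisomal oxidase of pipecolic acid and sarcosine, fell in serum/LIF by 0.48 (SE 0.137, adjusted p 0.00864) and was higher under 2i by 0.61, a call lost when any 1 of the 4 compared libraries was left out (log2 0.55 to 0.63). On rescue Pipox rose by 0.55, a call lost without rescued replicate 2 (log2 0.47).

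Of the 2 imprinted genes, the paternally expressed Zdbf2 was at 188, 170.1 and 155 CPM in E14 ESCs, 69.5, 75.7 and 76.4 CPM in the knockout and 187 and 213 CPM in rescued cells. The knockout stood apart below both, with a fall of 1.21 (SE 0.198, adjusted p 0.000102) and a rise of 1.46 (SE 0.215, adjusted p 4.63e-05). Under 2i Zdbf2 fell by 0.73 (SE 0.244, adjusted p 0.0337), a call lost when any 1 of the 4 compared libraries was left out (log2 -0.84 to -0.65). The maternally expressed Phlda2 passed in neither knockout comparison (-0.18 and -0.07) and rose on rescue by 0.54, a call lost without rescued replicate 2 (log2 0.43). Whether the allele in use differed cannot be read from these counts.

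Among the remaining members, AU018091 and Lrrc2 fell and rose again. AU018091 went from 156, 158 and 167 CPM in E14 ESCs to 84.2, 80.1 and 77.4 CPM in the knockout and 126 and 131 CPM in rescued cells, with a fall of 0.99 (SE 0.121, adjusted p 5.41e-06), a rise of 0.70 (SE 0.133, adjusted p 0.000444) and a fall under 2i of 1.27 (SE 0.149, adjusted p 2.64e-05). Lrrc2, a leucine-rich repeat protein, fell by 1.01 (SE 0.156, adjusted p 9.49e-05) and rose by 1.15 (SE 0.170, adjusted p 7.82e-05). Trp53i11 fell by 0.96, a call lost without E14 ESC replicate 3 (log2 -0.82). Arl14epl did not pass in serum/LIF (-0.01) and fell under 2i by 0.80, a call lost when any 1 of the 4 compared libraries was left out (log2 -0.84 to -0.81). Klhl8 and the calcium-binding protein gene Gca passed in neither. In all, 7 members passed in neither knockout comparison: Cobl, Dmrt1, Gca, Klhl8, Notch4, Nr5a2 and Phlda2.

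**Figure D3:**
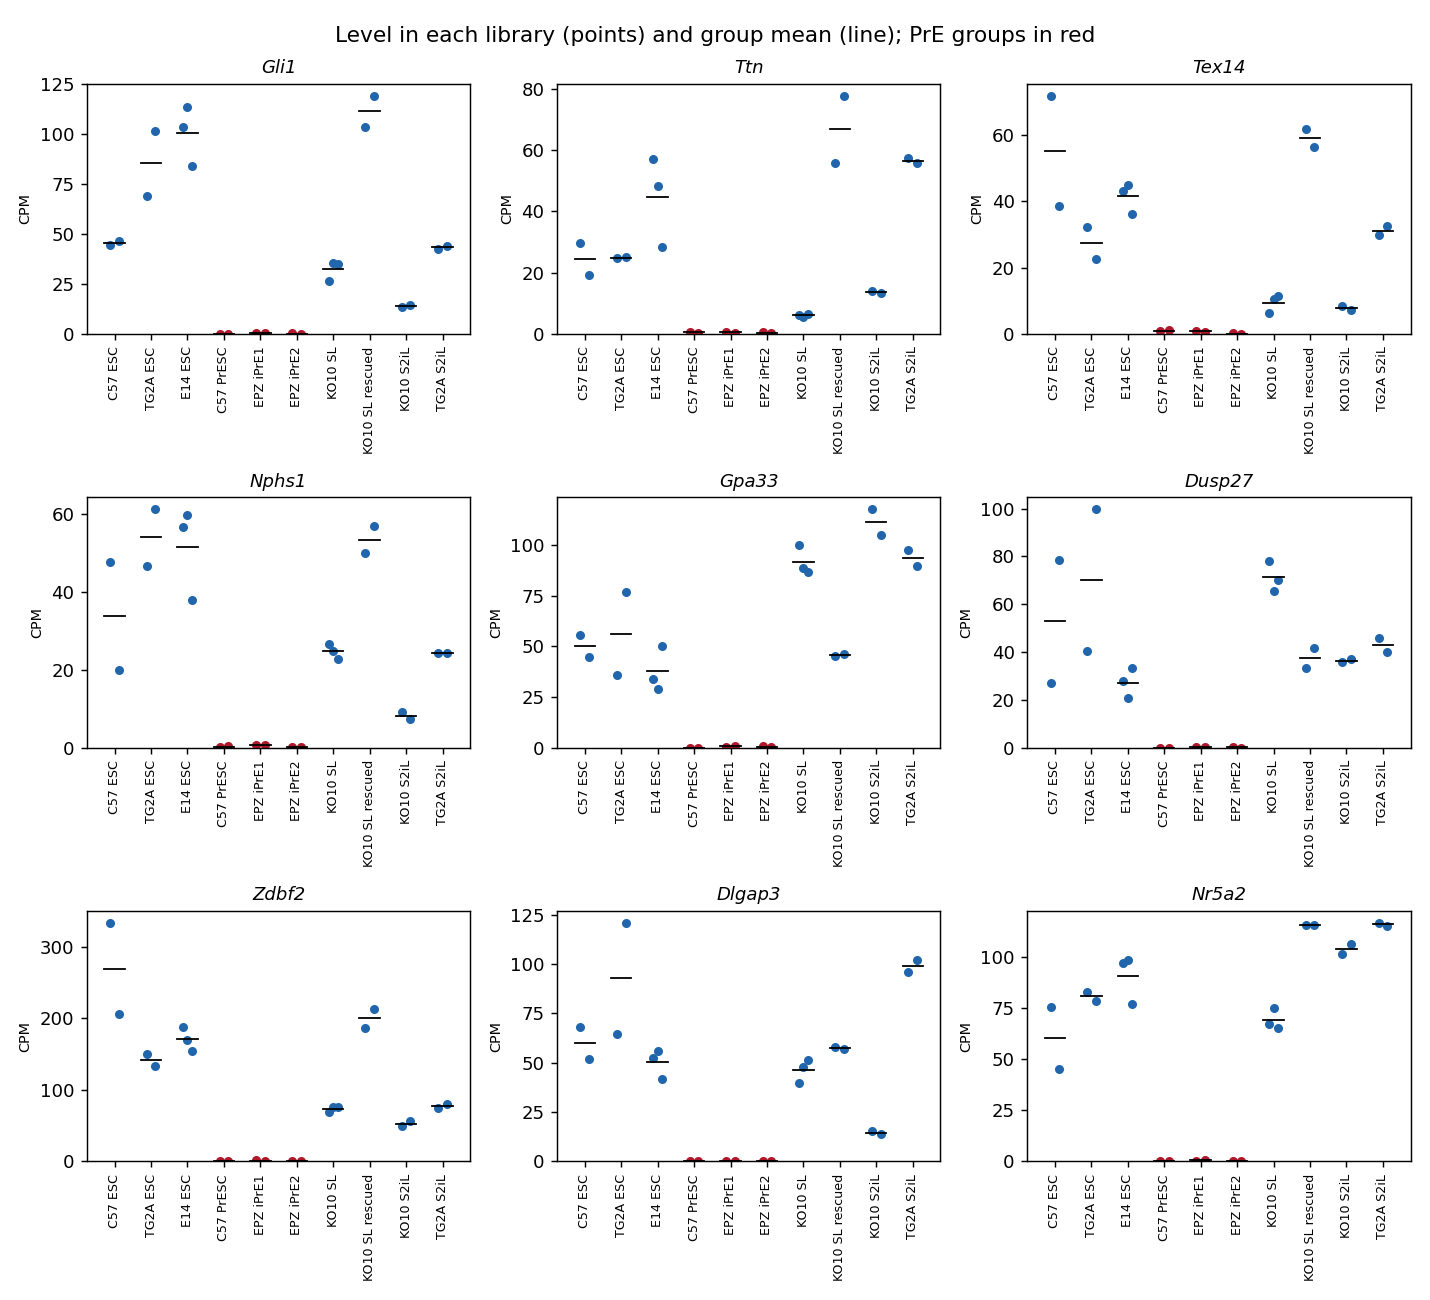
CPM in each library (points) and group mean (line) for 9 of the genes over the 10 groups, with PrE groups in red; each panel has its own axis from 0. Gli1, Ttn, Tex14, Nphs1 and Zdbf2 are low in the knockout and back up in rescued cells, Gpa33 and Dusp27 do the reverse against E14 ESCs, Dlgap3 is low in the 2i knockout, and the lowest Nr5a2 value outside PrE cells is 45 CPM.

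Under 2i the same knockout clone was compared with wild type in other libraries. There 23 of the 44 genes fell and 2 rose, with 19 of the falls at 2-fold or more. Of all tested genes, 14.3% were called lower and 15.7% higher (30% in either direction), and of the 6371 genes at ESC level 31.6% and 5.87%. The members' median was -0.77, against 0.01 over all genes and -0.20 over the 6371. For 33 genes both knockout libraries lay below both controls and for 7 above, where 26.8% and 48.8% of all tested genes separated so (45.3% and 36.0% of the 6371). The summed level was 1589 to 1612 CPM in the 2i knockout and 2233 to 2266 CPM in its control. PrE markers summed to 706 to 707 CPM in the 2i knockout, against 2294 to 2536 CPM in the serum/LIF knockout and 309 to 323 CPM in the 2i control. The 2-cell-like markers summed to 210.5 to 217.3 CPM against 6.439 to 6.502 CPM in that control, with 3 and 0 of the 5 at 20 CPM or more. Neural markers summed to 128.1 to 138.1 CPM against 69.4 to 76.7 CPM, trophoblast markers to 112.5 to 113.4 CPM against 75.9 to 78.4 CPM, and mesoderm markers to 22.7 to 23.1 CPM against 16.6 to 16.7 CPM. The part of these markers in the changes was not tested. Leaving out 1 library at a time, 17 of the 23 falls kept their call and neither rise did.

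The 2 knockout comparisons have no library in common. Both use the same single knockout clone, so they are not independent of it, and their controls differ, E14 ESCs in serum/LIF and TG2A cells under 2i. The comparisons shared 16 falling members, 64.0% of the 25 in serum/LIF and 69.6% of the 23 under 2i, where the matching shares were 29.52% and 46.95% over all tested genes and 40.05% and 48.36% over the 6371. Among the 16 were AU018091, Actn3, Evc, Gli1, Ina, Krt42, Mcf2, Nmnat2, Nphs1, Rasgrp2, Rragb, Tex14, Ttn, Zdbf2 and Zfp423. Atp1b2 rose in both. Pipox alone was called in opposite directions. Both of these 2i rises were lost with 1 library left out, as given above. Serum/LIF falls absent under 2i included Liph and Lrrc2. Falls called under 2i and not in serum/LIF against E14 ESCs included Dlgap3, Tgm1, Itgb7 and Gdf3. Group means of Dlgap3 were 46.2 CPM in the serum/LIF knockout and 92.7 CPM in TG2A ESCs. In the same order they were 25.7 and 55.2 CPM for Tgm1, 25.7 and 35.3 CPM for Itgb7, and 63.8 and 98.7 CPM for Gdf3. The absence of these falls in serum/LIF therefore depends on the control. Being called in a single medium does not show a difference between media.

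**Figure D4:**
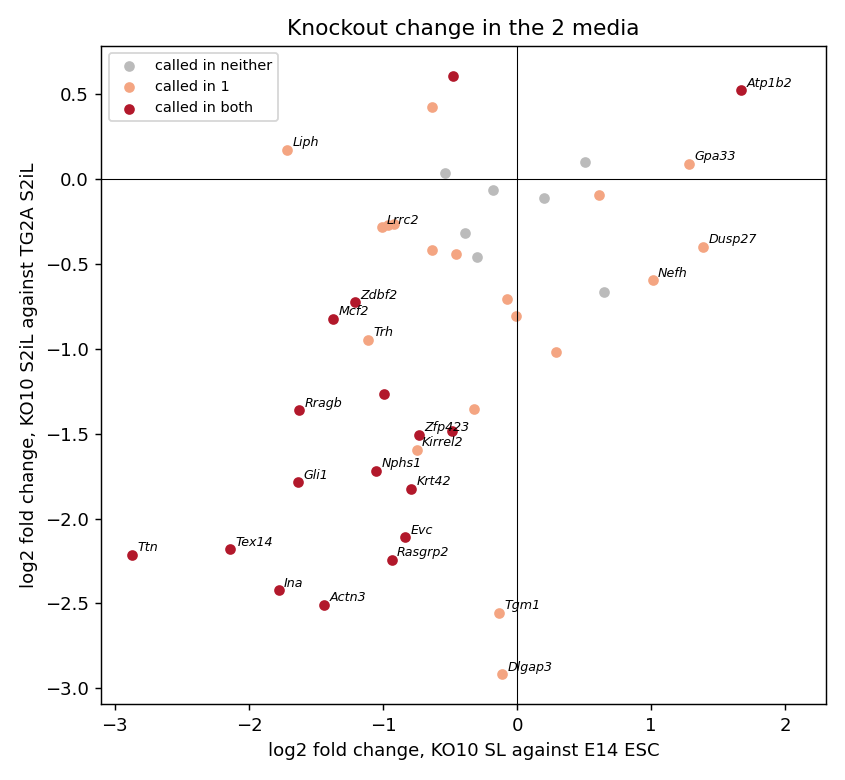
log2 fold change of 43 of the 44 genes in the serum/LIF knockout against E14 ESCs (horizontal) and in the 2i knockout against its control (vertical); red points were called in both, orange in one and grey in neither. Most red points lie in the lower left, Dlgap3 and Tgm1 lie near 0 on the horizontal axis and below -2.5 on the vertical one, and Atp1b2 is at the upper right.

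The difference between the media was tested directly: the change without Ezh2 in serum/LIF was subtracted from that under 2i, with TG2A cells as the control of both. Only Dlgap3 and Pipox passed of the 44, 1 in each direction, where 1.12% of all genes passed lower and 0.838% higher, 1.95% in all. Dlgap3 fell more under 2i by 1.82 (SE 0.377, adjusted p 0.023), a call lost without TG2A ESC replicate 1 or knockout replicates 2 or 3 or 2i knockout replicates 1 or 2 or 2i wild-type replicates 1 or 2 (log2 -1.90 to -1.39). Its TG2A control libraries in serum/LIF were themselves far apart, at 64.8 and 121 CPM. Pipox differed by 1.46 (SE 0.228, adjusted p 0.00421), and this call held in every such fit. It was at 52.3 and 58.6 CPM in TG2A ESCs and 33.3, 32.6 and 31.8 CPM in the knockout in serum/LIF, and at 28.2 and 29.2 CPM and 50.2 and 47.4 CPM under 2i, so the order of knockout and wild type was opposite in the 2 media. The standard error of this difference had to cover 4 groups, and -1.37 (SE 0.698, adjusted p 0.346) for Tgm1 and -1.33 (SE 0.575, adjusted p 0.248) for Evc did not pass.

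Members also differed between media. In wild-type TG2A cells 20 members fell and 4 rose from serum/LIF to 2i, 15 of the falls and all 4 rises by 2-fold or more, against 11.6% and 11.7% of all tested genes (23.3% in either direction) and 18.9% and 13.7% of the 6371. The median was -0.80, with 0.00 over all genes and -0.03 over the 6371. Marker sums differed between the same libraries, at 3353 to 3568 CPM in 2i and 1128 to 1844 CPM in serum/LIF for fibroblast, 69.4 to 76.7 and 126.5 to 158.4 CPM for neural, 75.9 to 78.4 and 18.6 to 38.2 CPM for trophoblast, 16.6 to 16.7 and 4.59 to 6.13 CPM for mesoderm, and 309 to 323 and 474 to 476 CPM for PrE markers. Fn1 again made up most of the fibroblast sum, and the part of these markers in the changes was not tested. Zfp423 fell from 55.3 and 78.1 CPM to 10.9 and 10.4 CPM, by 2.72 (SE 0.342, adjusted p 6.02e-05). Ina went from 34.5 and 30.2 CPM to 5.27 and 5.53 CPM, a fall of 2.64 (SE 0.302, adjusted p 3.7e-05). Both neurofilament genes were lower in 2i, since Nefh dropped from 74.8 and 65.2 CPM to 17.5 and 17.8 CPM, or by 2.05 (SE 0.232, adjusted p 2.58e-05). Actn3 fell by 2.33 and Gli1 by 1.05. Rises were seen for Arl14epl (1.31), Mcf2 (1.21), Pecam1 (1.14) and Ttn (1.12), and Ttn, low without Ezh2, stood at 57.3 and 55.7 CPM in wild-type 2i cells. Leaving out the second 2i wild-type library left 12 falls, the lowest of the 4 such fits, and 10 of the 20 falls kept their call in all 4.

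In knockout cells the same change of medium lowered 24 members and raised 5, where 17.3% and 19.6% of all genes were called, 36.9% in either direction (31.3% and 22.5% of the 6371), with a median of -0.72 against 0.06 over all genes and -0.07 over the 6371. Fibroblast markers summed to 3589 to 3745 CPM in the 2i knockout, and the other marker sums of both knockout groups are given above; their part was likewise not tested. Actn3 fell by 3.09 (SE 0.224, adjusted p 2.08e-07), Nefh by 2.85 (SE 0.229, adjusted p 4.64e-07) and Ina by 2.82 (SE 0.335, adjusted p 1.45e-05). Zfp423 fell by 2.54 and Evc by 2.50. Liph rose by 1.59 (SE 0.229, adjusted p 5.85e-05), from 12.1, 14.5 and 14.4 CPM to 45.3 and 45.2 CPM, Ttn by 1.03 and Mcf2 by 0.86. Pecam1 rose by 0.72, a call lost without 2i knockout replicate 2 (log2 0.67), and Pipox by 0.44, a call lost when any 1 of the 5 compared libraries was left out (log2 0.39 to 0.48). Each medium comparison shares its knockout or control libraries with a knockout comparison above, so these values are given side by side and not as an overlap. The lowest levels of the series outside PrE cells were reached where knockout and 2i met, as for Ina (1.25 and 0.990 CPM), Actn3 (2.16 and 1.98 CPM), Zfp423 (3.64 and 4.72 CPM), Evc (5.18 and 4.02 CPM), Rragb (4.27 and 4.60 CPM) and Rasgrp2 (4.95 and 6.41 CPM).

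Lists of other ESC genes gave mixed counts. For comparison, 22.7% of all tested genes were called lower and 25.8% higher in the serum/LIF knockout. Those shares were 24.1% and 20.9% on rescue and 14.3% and 15.7% under 2i. On a list of 30 pluripotency factors, with Nr5a2 the one member, 7 were called lower and 7 higher in the serum/LIF knockout, 5 lower and 7 higher on rescue, and 6 lower and 0 higher under 2i. Against E14 ESCs Sox2 fell by 0.56, Pou5f1 rose by 0.47, and Nanog (0.37) and Esrrb (-0.21) did not pass. Group means of Pou5f1 were 969 CPM in E14 ESCs, 1339 CPM in the knockout and 1582 CPM in TG2A ESCs, so its direction depended on the control. The Sox2 mean in the knockout, 302 CPM, lay below that of E14 (447 CPM) and TG2A ESCs (380 CPM). Under 2i the Pou5f1 difference was -0.49 and did not pass. Among 16 DNA methylation enzymes and chromatin partners of ESCs, none of them a member, 11 fell and 3 rose in the knockout, and 11 rose and 4 fell on rescue. Tet1, an oxidase of methylated cytosine, fell by 1.78, and the Polycomb subunits Cbx7 and Phc1 fell by 1.20 and 0.91, while Dnmt3l, a cofactor of new methylation, rose by 1.48. Of 13 formative and primed factors 5 fell and 1 rose, and of 14 genes of ESC metabolism 3 fell and 1 rose. The lists' median log2 changes in the knockout were 0.12 for pluripotency, -0.07 for signalling, 0.94 for germline, -0.52 for methylation and chromatin, -0.42 for formative and -0.22 for metabolism, against 0.07 over all genes and -0.63 for the 44.

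In the genome the 44 were scattered. All are protein coding in GENCODE M21 and lie on 17 chromosomes, 8 of them on chromosome 11. The 2 divergent pairs were the only members within 100 kb of each other. Another annotated gene overlaps 16 of the 44, on the opposite strand for 15, so their counts carry the same uncertainty as those of Gli1, Evc and Ina. Among the 16 are Ttn, Zdbf2, Nphs1 and Tex14, the last overlapped by 12 genes. RefSeq promoter windows on GRCm38.p6 were matched for 33 members, 40 windows of 32851. Their median observed to expected CpG ratio was 0.487 against 0.384 over all windows, and GC content was 57.3% against 52.7%. A ratio of 0.6 or more was found in 42.5% of member windows and 35.8% of all. The octamer ATTTGCAT was in 5.00% of member windows (Liph and Pipox) against 1.74% of all, the SOX motif CATTGTT in 5.00% (Cobl and Krt42) against 3.78%, and the E-box CACGTG in 7.50% (Lin28b, Mcf2 and Rragb) against 7.15%. The ESRRB and NR5A2 motif TCAAGGTCA and the GLI motif GACCACCCA were in none of the member windows, with 0.423% and 0.253% over all. Each was searched on both strands, no member window held overlapping motifs, and a match describes letters only.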

How the data were processed

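RNA-seq libraries of mouse cells were taken from 1 table of expected counts (estimated counts per gene symbol) that the authors deposited, 55367 symbols in 22 columns without scaling. Tools in the submitters' processing notes are STAR 2.7.6a, Trim Galore and DESeq2, with build mm10. The labels give the molecule as polyA RNA and the kit as rRNA depletion, 2 statements that conflict, and how RNA was selected is therefore unsure. Not given in the sources used here are the counter, its annotation and whether it used strand. Fractional values hold 27.0 to 37.2% of a library's counts, so near-identical and overlapping genes are uncertain.

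Levels are CPM over column totals. For tests, counts were rounded and fitted in R 4.3.3 with edgeR 4.0.16 (TMM scaling, filterByExpr, quasi-likelihood, 1 coefficient per group, all 22 libraries, 12 residual degrees of freedom, 17547 genes), with Benjamini-Hochberg adjustment over all genes of a comparison and calls at 0.05. The SE is the absolute log2 change divided by the square root of the F statistic. The procedure was tested on simulated data. DESeq2 1.42.0, RLE scaling, no filter, the compared groups alone, a replicate block, leaving out libraries and another control were tried. Depth of 13.6 to 26.3 M counts limits genes of few counts.

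The members and lists were chosen with earlier results of these data known, and roles were assigned after the members were seen. A rule named 32 members: those on the lists, the 10 highest in ESCs, up to 5 called per comparison and direction by size of change, and those nearest a cut-off. The other 12 are named as members, after their values were seen. The counts cover all 44, but the values of 1 member are not reported here. Genes set beside the pluripotency and chromatin lists were likewise picked after their values were seen. Gene positions are from GENCODE M21 and promoter windows from RefSeq.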

Additional observations from a re-analysis of the deposited data

Results flagged for a closer look

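The knockout change differed between the media for 2 of the 44 genes by the test of the difference itself (edgeR quasi-likelihood, adjusted over all genes). Dlgap3, the postsynaptic scaffold gene, changed by -1.82 more on the log2 scale under 2i than in serum/LIF (SE 0.377, adjusted p 0.023). Pipox, the peroxisomal oxidase gene, changed by 1.46 more (SE 0.228, adjusted p 0.00421), being lower than wild type in serum/LIF and higher under 2i. The Dlgap3 call was lost in 7 of 9 fits that left out 1 library and under the replicate block, and the Pipox call in none of these.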

How the results depend on the processing

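Of the 137 called gene results, 86 kept direction and call under every alternative and 92 in every fit that left out 1 library; of 1527 single refits 1357 kept the call and 168 lost it. The 2 that turned in sign did so with TG2A ESCs as the serum/LIF control: Dusp27 at -0.0735 and Meioc at 0.11. The rule gave 9 members at cut-offs of 40 and 0.5 CPM, 161 at 10 and 2 CPM, 25 when every library had to pass, and 38 to 59 with 1 library left out. With 1 library left out, falls and rises of members numbered 19 to 22 and 5 in the knockout, 2 to 3 and 16 to 22 on rescue, 0 and 0 in rescued cells against E14, 17 to 20 and 0 in the 2i knockout, 12 to 20 and 4 to 5 for 2i in wild type, 17 to 21 and 3 to 4 for 2i in the knockout, and 0 to 1 and 1 to 2 for the difference between media. A lone sample left in a group was taken to vary like the other groups. The cause of these moves was not tested, apart from fewer samples in these fits. With only the compared groups, 8 rose in the knockout, 8 fell on rescue, 3 fell and 4 rose in rescued cells against E14, 8 rose with 2i in the knockout, and 7 fell and 5 rose in the difference between media. Without the filter these counts were 3 and 3 in rescued cells, 7 rises with 2i in wild type, and 6 and 4 in the difference between media. DESeq2 gave 2 rises in rescued cells, and 2 and 3 in the difference between media. TG2A ESCs as control gave 1 rise in the knockout, and 4 falls and 5 rises in rescued cells. Without the C57 libraries, added after seeing the data, rescued cells had 1 fall and the difference between media 7 and 3. With members chosen without the second C57 PrE library, also added, 31 of 59 fell and 6 rose in the knockout and 24 fell and 2 rose under 2i. Replicate numbers did not pair the libraries (same-number correlations of -0.051 to 0.054), and the replicate block left 0 rises in rescued cells and 0 falls in the difference between media, with 15 of 137 gene calls lost.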
